A study of Mus musculus with 4 samples.

Results

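Cyclins are the regulatory subunits that switch on cyclin-dependent kinases (Cdks), and 10 mouse cyclin genes are described here: Ccnd1, Ccnd2, Ccnd3, Ccne1, Ccna2, Ccnb1, Ccnb2, Ccnf, Ccng1 and Ccng2. They were chosen by name, and every probe set annotated to them was used, where a probe set is a group of short probes on the array that together read 1 transcript. Of the 10 genes, 8 were measured, by 9 probe sets, among 8220 genes and 12654 probe sets in all. Ccnd3 and Ccnb1 were not analysed here.

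RNA came from mouse cells on 4 arrays. The groups were dendritic cell progenitors from bone marrow that had been amplified in culture, cells differentiated from them for 7 days, cells differentiated for 10 days, and cells differentiated for 10 days with tumour necrosis factor (TNF) added for 16 hours. Dendritic cells take up antigen and prime T cells with it, and TNF is a cytokine that matures them. Each group has 1 array, so no difference below has a replicate or a test. The labels give no strain, age, culture factor or TNF dose, and do not say how many mice or cultures stand behind an array.

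In a cycling cell the D cyclins respond to growth factors and, with Cdk4 and Cdk6, start the inactivation of the retinoblastoma protein in G1. Cyclin E with Cdk2 then completes that step and opens S phase, cyclin A acts with Cdk2 and Cdk1 through S phase and into mitosis, and B cyclins with Cdk1 drive mitosis itself. Cyclin F binds no Cdk and is the substrate-binding part of an ubiquitin ligase, while the G cyclins are linked to growth arrest: Ccng1 is a target of p53 and Ccng2 of FoxO factors. D cyclin genes follow outside signals, whereas E, A and B cyclin genes are switched on once per cycle by E2F and, for mitosis, by complexes that bind the CHR element of their promoters.

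Promoter windows in RefSeq (build GRCm38.p6) were held for 7 of the 10 genes, Ccnb1, Ccnb2, Ccnd3, Ccne1, Ccnf, Ccng1 and Ccng2. Entries for Ccna2, Ccnd1 and Ccnd2 were not used here. Each window runs from 250 bases before the annotated start of the gene to 50 after it. Windows were searched on both strands for TTTGAA, the letters of the CHR element, for CCAAT, the letters of the CCAAT box, and for GCGC, the core of many E2F sites. The windows of Ccnb2 and Ccnf are shown because, among the measured members with a window, these genes had the lowest day 10 levels relative to the progenitor, and that of Ccne1 because its level followed another course. They are printed 5′ to 3′ up to 30 bases after the start. Capitals mark TTTGAA and CCAAT in the first 2 and GCGC in the last, and the GCGC letters of the first 2 are left unmarked. The Ccnb2 window lies on the minus strand at chr9:70421525-70421804, that of Ccnf on the minus strand at chr17:24251380-24251659, and that of Ccne1 on the minus strand at chr7:38107461-38107740.
Ccnb2: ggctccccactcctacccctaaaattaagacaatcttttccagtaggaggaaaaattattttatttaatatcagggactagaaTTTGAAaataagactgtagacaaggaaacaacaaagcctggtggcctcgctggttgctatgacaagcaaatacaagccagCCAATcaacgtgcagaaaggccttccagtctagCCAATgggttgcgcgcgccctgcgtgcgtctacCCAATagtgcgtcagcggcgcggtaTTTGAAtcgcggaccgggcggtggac
Ccnf: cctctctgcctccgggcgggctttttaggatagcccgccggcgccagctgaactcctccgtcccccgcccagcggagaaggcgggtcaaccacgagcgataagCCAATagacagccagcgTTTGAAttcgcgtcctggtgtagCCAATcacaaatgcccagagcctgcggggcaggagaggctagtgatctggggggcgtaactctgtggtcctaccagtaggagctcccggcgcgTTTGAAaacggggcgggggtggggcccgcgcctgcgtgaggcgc
Ccne1: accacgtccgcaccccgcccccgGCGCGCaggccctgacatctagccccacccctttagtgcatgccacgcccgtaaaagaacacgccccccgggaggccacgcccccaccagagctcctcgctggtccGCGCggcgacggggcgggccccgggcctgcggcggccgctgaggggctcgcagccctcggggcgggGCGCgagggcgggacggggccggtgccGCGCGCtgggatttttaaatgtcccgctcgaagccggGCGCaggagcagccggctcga

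In the whole windows of 300 bases, Ccnb2 held TTTGAA at 2 positions and CCAAT at 3, and Ccnf held each at 2. Ccne1 held neither, and GCGC at 8 positions, where Ccnb2 and Ccnf held GCGC at 4 each, Ccnb1 at 2 and Ccng1 at 1. Ccnb1 held CCAAT at 2 positions and no TTTGAA, Ccng1 held CCAAT at 4, and Ccng2 held only GCGC, at 3. The 2 Ccnd3 windows held GCGC, and 1 of them CCAAT, but no TTTGAA. Of 32851 promoter windows of this length, 17.9% held TTTGAA, 37.4% CCAAT and 47.1% GCGC on either strand. TTTGAA together with at least 2 CCAAT positions, a combination chosen after the windows had been read, occurred in 2.09%. GCGC reads the same on both strands, its matches can overlap, and a match describes letters only. No other spelling of the CHR element was searched, so a window without TTTGAA is not shown to lack the element.

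Levels below are scaled intensities in the arrays' own units. Values were raised to a floor of 105 units, the 40th percentile of all scaled values, before log2 ratios were taken. A gene counts as higher or lower at a ratio of at least 2-fold. Folds in words use a stricter floor of 428 units, the 60th percentile. They are written as "at least" where the dimmer array lies under it, and no fold is given where both do. Where a gene has several probe sets above 105 units on both arrays, the log2 ratios of the 2 brightest of these were subtracted. The SD of that difference over genes is the only error estimate. It was 0.83 for day 7 over progenitor (672 genes), 0.85 for day 10 over day 7 (665), 1.08 for day 10 over progenitor (635) and 0.74 for TNF over day 10 (674). It covers probes, not cultures, and no readings under 105 units. On each array 22.8% to 24.3% of probe sets lay below 0, and 3888 to 3991 genes lay above 428 units. The median log2 ratio of all genes was between -0.04 and 0.07 in the 4 comparisons.

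Markers of the labelled cell types were read first. Of 8 progenitor markers, 5 lay above 428 units on the progenitor array, with Mpo at 26660 units and Myb at 8955. Mpo had 200 units and Myb 248 at day 10, whereas Kit, the stem cell factor receptor gene, had 647, 1308, 1362 and 1624 units on the 4 arrays. Cd34, Gata2 and Meis1 lay under 428 units on every array. Of the dendritic cell markers, 1 of 12 lay above 428 units in progenitors, 10 at day 7, 11 at day 10 and all 12 with TNF, with summed levels, readings under 0 counted as 0, of 4051, 85938, 347280 and 359553 units in that order. Granulocyte markers summed over 11 measured genes to 217606 units in progenitors, 121743 at day 7, 142368 at day 10 and 17925 with TNF. They took different courses: the granule protease gene Elane had 27938, 6501, 999 and 636 units, and the calcium-binding protein gene S100a8 had 27286, 23848, 57731 and 7537. Macrophage markers summed to 11582, 47894, 80612 and 50819 units over 11 genes. B cell, T and NK cell, erythroid, mast cell and stromal markers summed to at most 5398 units on any array. The T cell genes Cd3d, Cd3e and Cd3g and the collagen genes Col1a1, Col1a2 and Col3a1 lay under 428 units throughout. The part of a changing cell mixture in the cyclin levels was not tested, and fewer cells of a type cannot be told apart from less RNA per cell.

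Ccnd1 was highest at day 10 by both of its probe sets. Its brighter probe set had 773 units in progenitors, 745 at day 7, 1201 at day 10 and 662 with TNF, so day 10 was highest and the other 3 arrays lay close together. Its dimmer probe set had 212, 267, 433 and 410 units on the same arrays. Both probe sets put day 10 above day 7 by nearly the same log2 ratio, 0.69 and 0.70. They differed over TNF, where the brighter one was 1.81-fold lower than at day 10 and the dimmer one had a log2 ratio of -0.08. None of the brighter probe set's ratios reached 2-fold, and its log2 ratio with TNF, -0.86, was little beyond the probe-set SD of 0.74. Of the genes above 105 units on both arrays, 9.3% had a lower ratio with TNF. At day 10 over progenitor the dimmer one had a log2 ratio of 1.03, against 0.64 for the brighter one. That ratio rests on a progenitor reading of 212 units, under the stricter floor.

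Ccnd2, the other measured D cyclin gene, dipped and returned. Its single probe set read 1203 units in progenitors, 451 at day 7, 29 at day 10 and 2226 with TNF. The level was thus lower at each step of differentiation and highest with TNF, above the progenitor itself. Day 7 was 2.67-fold lower than the progenitor. At day 10 the reading lay under both floors, so the fold to the progenitor, at least 2.81-fold lower, and that to day 7, at least 1.05-fold lower, are bounds. With TNF it was at least 5.20-fold higher than at day 10 and stood at 185% of the progenitor level. Among all 8220 genes Ccnd2 was the only one at or under 105 units at day 10 and at or above 2226 units with TNF; both limits are its own values and were set after they were seen.

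The genes with the most similar courses were found by the distance between centred log2 profiles over the 4 arrays, among 4729 genes above 428 units on at least 1 array. For Ccnd1 they were Dpm3, Nptx2, Ap2a2, Rhoa and Xrcc1, at distances of 0.07 to 0.16, where the median gene lay at 1.13. Rhoa, which encodes a small GTPase of the cytoskeleton, had 8179, 7612, 11066 and 6657 units in progenitors, at day 7, at day 10 and with TNF. For Ccnd2 the closest were Rcl1, Ehd1, Nedd4, Plcg1 and Sapcd1, at 1.38 to 1.76 against a median of 3.51. These distances are larger than those for Ccnd1, and the day 10 reading of Ccnd2 lay under the floor. Rcl1 had 886, 324, 212 and 1330 units in progenitors, at day 7, at day 10 and with TNF. Ehd1 had 621, 450, 148 and 904, and both ranked the 4 arrays as Ccnd2 did. Nedd4, an ubiquitin ligase gene, had 2392, 434, 382 and 2016 units on the same arrays and was highest in progenitors. For Ccna2 they were Nup107, Asf1b, Nfe2, Lrg1 and Rflnb, at 0.36 to 0.59 against 3.91, with Asf1b, a histone chaperone gene, at 2696, 1254, 432 and 65 units. With 4 arrays these distances describe the readings and nothing more.

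**Figure D1:**
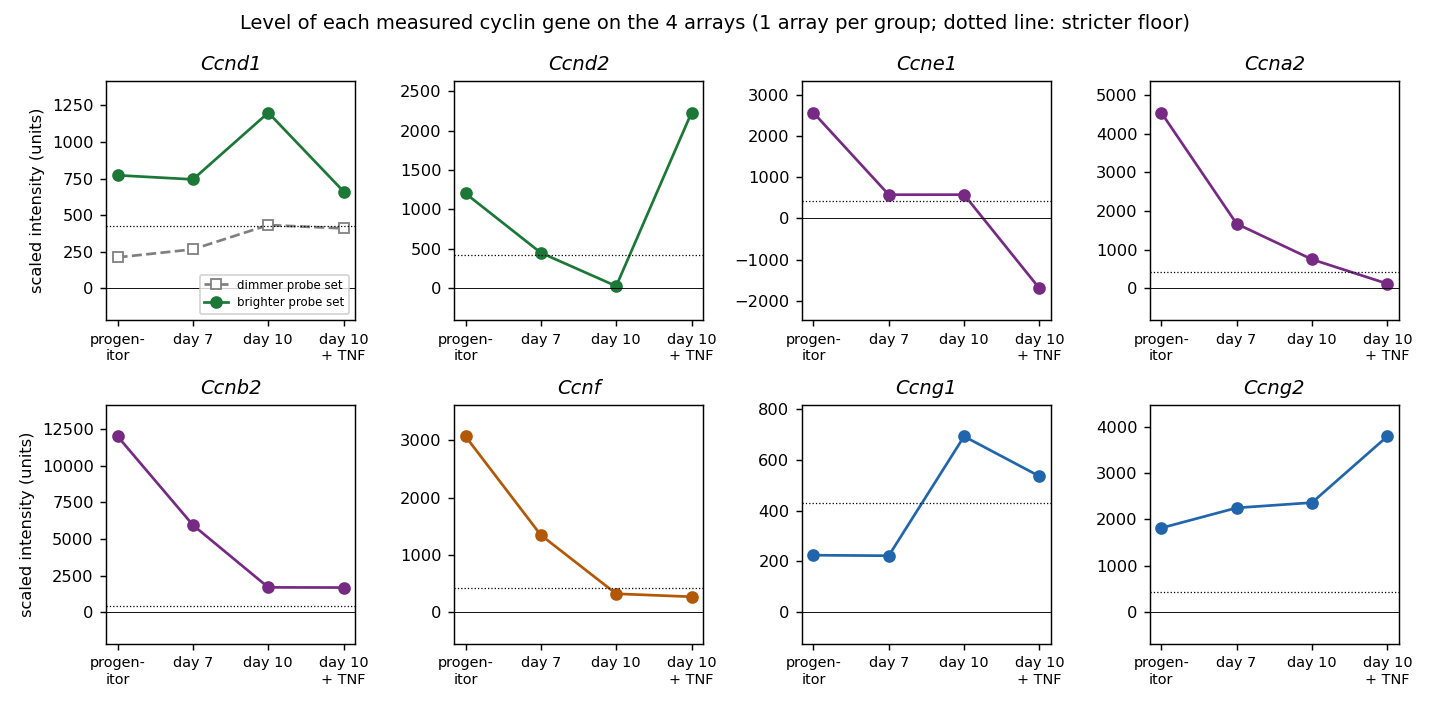
Each panel plots 1 measured cyclin gene, with its scaled intensity in units on the y axis (scales differ between panels) against the 4 arrays, 1 per group, on the x axis; points are single arrays, and Ccnd1 has 2 probe sets. Ccna2, Ccnb2 and Ccnf step down from the progenitor to day 10, Ccnd2 dips to 29 units at day 10 and stands at 2226 with TNF, and Ccng2 is highest with TNF at 3788.

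Ccne1, whose product opens S phase, had 2575 units in progenitors, 578 at day 7, 579 at day 10 and -1703 with TNF. The whole difference between progenitors and day 10 was present by day 7, at 4.45-fold lower, and days 7 and 10 had nearly the same level. The reading with TNF lies far below 0 and is no level. On that array 28 genes read below -1000 units, and Ccne1 was the only gene of 8220 above 428 units at day 10 and below -1000 with TNF. No fold with TNF is given, and whether the probe set failed on that array was not tested.

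Ccna2, the cyclin gene of S phase and early mitosis, had 4541 units in progenitors, 1670 at day 7, 750 at day 10 and 121 with TNF. Every array was lower than the one before it. Day 7 was 2.72-fold lower than the progenitor, day 10 was 2.23-fold lower than day 7, and TNF was at least 1.75-fold lower than day 10. The day 10 level was 16.5% of the progenitor level, and the level with TNF at most 9.43%.

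Ccnb2, a mitotic cyclin gene, had 12022 units in progenitors, 5953 at day 7, 1692 at day 10 and 1679 with TNF. It was lower at both steps of differentiation and level between TNF and day 10. The first step was 2.02-fold and the second 3.52-fold, so here the larger ratio belonged to the last days. The day 10 level was 14.1% of the progenitor level and that with TNF 14.0%.

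Ccnf, whose product marks proteins for destruction late in the cycle, followed the same course, with 3068 units in progenitors, 1345 at day 7, 320 at day 10 and 268 with TNF. Day 7 was 2.28-fold lower than the progenitor, and day 10 at least 3.14-fold lower than day 7 and at least 7.17-fold lower than the progenitor. Both day 10 arrays lay under 428 units, so no fold is given between them.

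Ccng1, the p53 target, had 224 units in progenitors, 222 at day 7, 692 at day 10 and 535 with TNF. Only the day 10 arrays lay above 428 units. Day 10 was at least 1.62-fold higher than day 7, and TNF was 1.29-fold lower than day 10. Ccng2 had 1813, 2247, 2360 and 3788 units in the same order, and each array was above the one before it. TNF was 1.60-fold higher than day 10, and the steps before it were 1.24-fold and 1.05-fold, all smaller than 2-fold. The sign of the smallest step, day 10 over day 7, turned under other scalings of the arrays, at a log2 ratio of 0.07 here and -0.06 in the values as deposited. With TNF Ccng2 stood at 209% of its progenitor level, while Ccnd2 stood at 185% and Ccnd1 at 85.6%.

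Between day 7 and progenitor, 5 of the 8 members were at least 2-fold lower and 0 higher. They were Ccnd2, Ccne1, Ccna2, Ccnb2 and Ccnf, where 11.9% of all 5957 genes above 105 units were lower and 13.4% higher. Their median log2 ratio was -1.10. Ccnd1, Ccng1 and Ccng2 were the 3 that lay within 2-fold, and their log2 ratios were between -0.05 and 0.31. Of the genes above 105 units on both arrays, 0.9% had a lower ratio than Ccne1, 4.7% than Ccna2, 4.9% than Ccnd2 and 10.7% than Ccnb2.

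Between day 10 and day 7, 4 members were lower, Ccnd2, Ccna2, Ccnb2 and Ccnf, and 1 was higher, Ccng1, where 8.44% of all 6123 genes were lower and 11.2% higher. Ccng1 and Ccnd2 had 1 of the 2 arrays under 428 units and lie inside 2-fold at that floor. Ccnb2 had a ratio that 1.3% of genes undercut, and Ccna2 one that 4.8% undercut. In this comparison the arrays also differed in 11 control probe sets for transcripts added to the samples, whose log2 ratios were between 0.99 and 1.77, and genes with a mean level over 8192 units had a median of 0.49. Genes of 512 to 2048 units had a median of -0.03 and those of 2048 to 8192 one of 0.06, the range where most members lie. Quantile normalization, which gives all arrays the same distribution, moved no member's log2 ratio by more than 0.20 in any of the 4 comparisons.

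Over the whole differentiation, day 10 against progenitor, 5 members were lower and 1 higher, where 16.8% of all 6198 genes were lower and 20.4% higher. The lower ones were Ccnd2, Ccne1, Ccna2, Ccnb2 and Ccnf. Ccnb2 was 7.11-fold, Ccna2 6.05-fold and Ccne1 4.45-fold lower, each more than the probe-set SD of 1.08 log2 units. Ccnd1 was 1.55-fold and Ccng2 1.30-fold higher, both within that SD. The added control transcripts were shifted here too, with log2 ratios between 0.45 and 1.43, and genes with a mean level over 8192 units had a median of 0.77. In the other 2 comparisons the shift had the other sign. The controls lay between -1.05 and -0.21 at day 7 over progenitor and between -0.88 and -0.33 with TNF over day 10. Genes over 8192 units had medians of -0.02 and -0.17 there. Ccng1, the 1 counted as higher, was at least 1.62-fold higher.

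Between TNF and day 10, 1 member was higher, Ccnd2, and 2 lower, Ccne1 and Ccna2, where 8.84% of all 6151 genes were higher and 8.76% lower. Ccne1 is counted from the reading of -1703, which is no level, and without it 1 member was lower. Both of the lower ones rest on readings near or below the floor of 105 units, and at the floor of 428 units neither is past 2-fold, while Ccnd2 still is. Granulocyte markers were lower with TNF as well, at a summed 17925 units against 142368 at day 10, and progenitor markers summed to 2757 with TNF and 2980 at day 10. Their part in the cyclin ratios was not tested.

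**Figure D2:**
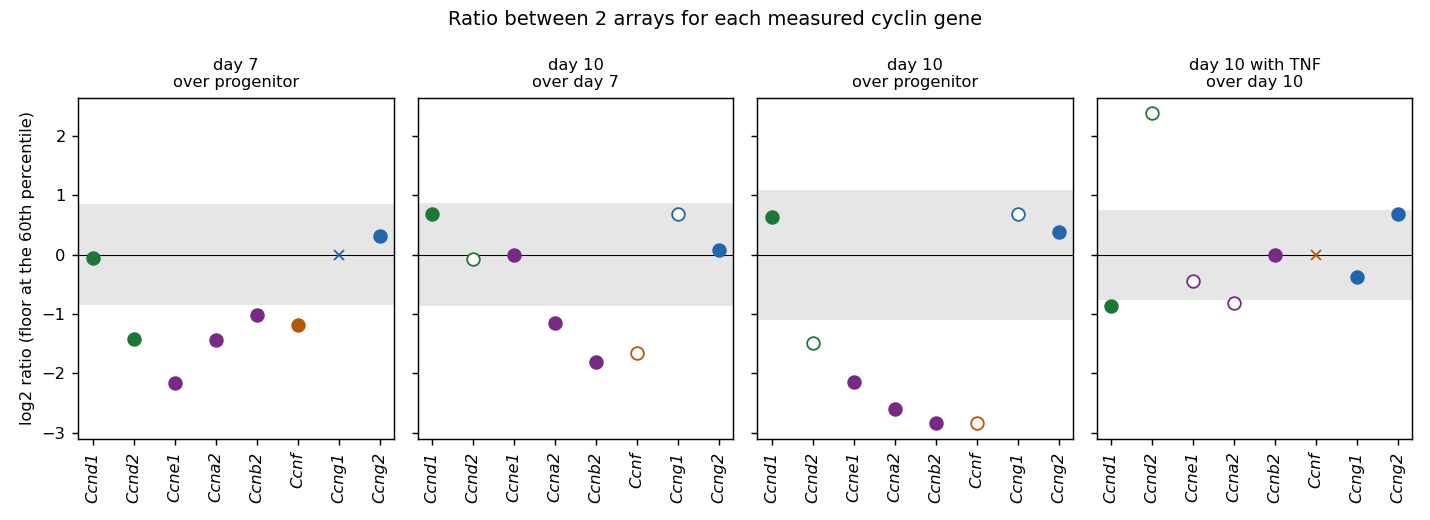
The 4 panels plot the log2 ratio between 2 arrays for each of the 8 measured cyclin genes, with values under 428 units raised to 428; open circles are bounds, crosses mark genes under 428 units on both arrays, and the grey band is plus or minus 1 SD of the disagreement between probe sets. Ccnd2, Ccne1, Ccna2, Ccnb2 and Ccnf lie below the band for day 7 and day 10 over progenitor, and Ccnd2 lies at 2.38 for TNF over day 10, where the Ccne1 point comes from a reading far below 0.

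The D cyclins were then set against the A, B and E cyclins. At day 7 over progenitor the median log2 ratio was -0.73 over the 2 measured D cyclin genes and -1.44 over the 3 measured A, B and E cyclin genes, a difference of 0.71. At day 10 over progenitor the medians were -1.44 and -2.60, a difference of 1.15, which was 2.17 at the floor of 428 units and 0.37 at a floor of 35.2. These D medians are the midpoint of genes that went different ways: Ccnd1 had 0.64 and Ccnd2 -3.52 at day 10 over progenitor, while the A, B and E genes lay together between -2.83 and -2.15. At day 10 over day 7 the D genes had 0.69 and -2.11, the lower one from the Ccnd2 reading of 29 units and -0.07 at the floor of 428, and the A, B and E genes ran from -1.81 to 0.00. Between TNF and day 10 the D median was 1.77 and the A, B and E median -2.47, a difference of 4.24, which shrank to 1.20 with values floored at 428 units. The A, B and E median here is the ratio of Ccne1, taken from the reading of -1703. Without Ccne1, a choice made after the data were seen, that median was -1.32 and the difference 3.10. There too the D genes parted, with 4.41 for Ccnd2 and -0.86 for Ccnd1, and the A, B and E genes ran from -2.63 to -0.01. The ranges of the classes overlapped in all 4 comparisons at the floor of 105 units. At 428 units they overlapped in all but day 10 over progenitor, where the D genes ran from -1.49 to 0.64 and the A, B and E genes from -2.83 to -2.15. With TNF the higher D median came from Ccnd2 alone.

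Most kinase and Cks genes were lower during differentiation, as Ccna2 and Ccnb2 were. Of 6 measured kinase and Cks genes, 4 were at least 2-fold lower and 0 higher at day 7 over progenitor (median log2 ratio -1.28), and again 4 and 0 at day 10 over day 7 (-1.52), where 11.9% and 8.44% of all genes were lower. Cdk1, the kinase partner of cyclin B, had 9807 units in progenitors, 2934 at day 7, 678 at day 10 and 482 with TNF, 14.5-fold lower at day 10 than in progenitors. Cdk2, the partner of cyclins E and A, was 5.08-fold lower over the same interval, and Cks1b and Cks2, which encode small subunits of Cdk complexes, 11.5-fold and 8.22-fold. Cdk4, the partner of the D cyclins, took another course, with 2745, 1262, 2315 and 867 units on the 4 arrays. It was 2.18-fold lower at day 7 than in progenitors and 2.67-fold lower with TNF than at day 10, and it was the 1 gene of this list past 2-fold with TNF. A second Cdk4 probe set lay at or under 105 units on every array. The D cyclin gene that was highest with TNF, Ccnd2, thus stood beside a lower reading of Cdk4, and Cdk6 was not analysed here.

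Among 8 Cdk inhibitor genes the directions were mixed. Cdkn1a, which encodes p21, had 1916 units in progenitors, 9496 at day 7, 13085 at day 10 and 22384 with TNF, 4.96-fold higher at day 7 than in progenitors. Its second probe set had log2 ratios of 2.16 at day 7 over progenitor, 2.16 at day 10 over day 7, where the brighter one had 0.46, and 1.07 with TNF over day 10. Cdkn1b, which encodes p27, was bright throughout, with 7468 to 11714 units and ratios of at most 1.57-fold. Cdkn1c, which encodes p57, was at least 3.99-fold higher at day 10 than at day 7 and at least 3.99-fold lower with TNF than at day 10, at 386 and 1707 units. Cdkn3, whose product is a phosphatase of Cdks, was 3.48-fold lower at day 7 than in progenitors. The list had 1 member higher and 3 lower of 7 above 105 units at day 7 over progenitor, 2 and 1 at day 10 over day 7, and 1 and 2 with TNF over day 10. The shares of all genes were 13.4% higher and 11.9% lower, 11.2% and 8.44%, and 8.84% and 8.76%. At the floor of 428 units the counts were 1 and 1 of 4, 1 and 0 of 5, and 0 and 1 of 4. Among all genes at that floor they were 453 and 419 of 4311, 314 and 201 of 4326, and 203 and 222 of 4308.

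**Figure D3:**
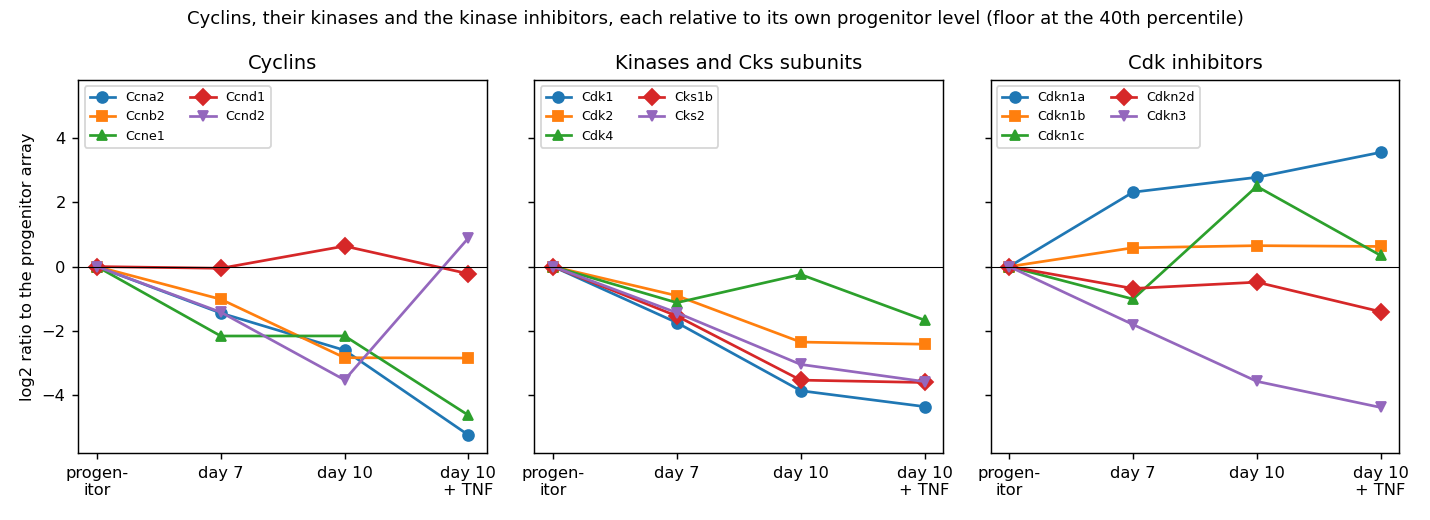
The 3 panels plot log2 ratios to each gene's own progenitor level, after a floor of 105 units, for cyclins, for kinases with their Cks subunits and for Cdk inhibitors, on the 4 arrays in order; each point is 1 array and 1 probe set. Cdk1, Cks1b and Cks2 go down with Ccna2 and Ccnb2, Cdkn1a goes up on every array, and Ccnd2 and Cdkn1c turn with TNF in opposite directions. The Ccne1 point with TNF comes from a reading far below 0.

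Upstream of the late cyclins, Rb and E2F genes had 2 of 8 members lower and 0 higher at day 7 over progenitor (median -0.35), and 3 and 0 at day 10 over progenitor (-0.38). Among all genes 11.9% were lower at day 7 and 16.8% at day 10. At the floor of 428 units the list had 2 lower of 6 and 3 lower of 6, where 419 of 4311 and 660 of 4460 genes were lower. Counts this small are a description only. Tfdp1, which encodes the partner subunit of E2F factors, had 11987 units in progenitors and 1605 at day 10, 7.47-fold lower at day 10, and E2f8, a repressor of the family, was at least 6.51-fold lower. Rb1 lay between 607 and 870 units on all arrays. Of 3 measured Cdk phosphatase and inhibitory kinase genes all 3 were lower at day 10 than in progenitors (median -2.02), against 2 with a floor of 428 units (-1.19), with Cdc25a, which encodes a phosphatase that activates Cdk2, 4.01-fold lower; a second Cdc25a probe set lay under 105 units throughout.

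Many activators and targets of the mitotic cyclins were lower at both steps. Of 15 measured genes, 10 were lower and 0 higher at day 7 over progenitor (median -1.41), 11 and 0 of 14 at day 10 over day 7 (-2.28), and all 15 were lower at day 10 over progenitor (-3.59). The shares of all genes that were lower in these comparisons were 11.9%, 8.44% and 16.8%. At the floor of 428 units the second step had 6 lower of 13 (median -0.97), and day 10 over progenitor 14 of 15 (-2.55). Among all genes at that floor 201 of 4326 and 660 of 4460 were lower. Foxm1, a transcription factor that acts on Ccnb1 and its kin, was 4.15-fold lower at day 7 than in progenitors, and Mki67, the gene of the Ki-67 proliferation antigen, was 12.9-fold lower at day 10 than in progenitors. Between TNF and day 10 only 4 of these genes had a reading over 428 units, with 0 past 2-fold (median -0.12), so the comparison says little of this list. Mki67 had 657 units with TNF and 614 at day 10.

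Of the genes that take cyclins apart, Cdc20 and Cdc23 were the 2 past 2-fold lower at day 7 and at day 10 over progenitor. Of the 12 above 105 units at day 7 over progenitor 2 were lower and 0 higher (median -0.45), against 11.9% lower and 13.4% higher among all genes. Of 13 at day 10 over progenitor 2 were lower and 1 higher (-0.19), against 16.8% lower and 20.4% higher among all genes. Counts this small are a description only. Cdc20, which directs the anaphase-promoting complex to mitotic cyclins, had 10903 units in progenitors, 3258 at day 7, 725 at day 10 and 742 with TNF, 15.0-fold lower at day 10 than in progenitors. Of the complex's subunit genes, Cdc23 was 2.95-fold, Anapc5 1.99-fold and Anapc1 1.90-fold lower at day 10 than in progenitors. The other probe sets of Cdc23 gave log2 ratios of 0.00, 0.00 and -0.05, and a second one of Anapc1 gave 0.63. The ratios of 0.00 come from readings raised to the floor of 105 units, so they measure no lack of change. Anapc2 had 3567 units at day 10 and 2976 in progenitors, Anapc11 had 4722 and 2754, Anapc4 had 1423 and 1751, and Cdc16 had 1276 and 1459.

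The other cyclins, some of which act in transcription rather than in the cycle, had median log2 ratios near 0. Only 4 of them lay above 428 units on at least 1 array in each comparison. Of 8 measured genes, 6 lay above 105 units at day 7 over progenitor, with 1 lower and 0 higher (median -0.06). Of all genes 11.9% were lower and 13.4% higher there. At day 10 over progenitor 7 lay above 105 units, with 1 lower and 1 higher (-0.03), where 16.8% of all genes were lower and 20.4% higher. Ccnl2 had 4184, 4044, 4176 and 4393 units on the 4 arrays, and Ccnt1, a subunit of the elongation factor P-TEFb, had 1085, 1063, 1061 and 624. Ccni was 2.20-fold higher at day 10 than at day 7 by its brightest probe set, while its other probe sets gave ratios on both sides of 0. The second E-type gene, Ccne2, read 408, 124, -111 and 1 units, under 428 throughout.

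For the context of Ccng1, 5 of 9 measured p53 pathway genes were higher at day 7 than in progenitors and 0 lower, where 13.4% of all genes were higher and 11.9% lower, among them Cdkn1a, Gadd45a, at least 3.03-fold, and Zmat3, at least 2.43-fold. Ccng1 itself was flat at that step, at 222 and 224 units, and higher only at day 10, a step at which 0 of the 9 were past 2-fold (median 0.22). For Ccng2, 3 of 9 FoxO pathway genes above 105 units were higher and 0 lower at day 7 over progenitor (median 0.34), against the same 13.4% and 11.9%. With a floor of 428 units 2 were higher and 0 lower, where 453 of 4311 genes were higher and 419 lower. With TNF over day 10, 1 was higher and 2 lower (-0.02), against 8.84% and 8.76% of all genes, with Bcl6, a transcriptional repressor, 2.16-fold higher with TNF. Cdkn1a, Cdkn1b, Gadd45a, Sesn1 and Rbl2 each stand in more than 1 of these lists.

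Some genes known to act on D cyclin transcription were higher with TNF. Of 15 above 105 units, 6 were higher and 0 lower than at day 10, with a median log2 ratio of 0.50, where 8.84% of all genes were higher and 8.76% lower. Junb, an AP-1 subunit, was 8.25-fold higher by its brighter probe set, with a log2 ratio of 0.71 from the other. Stat5a, a transducer of cytokine signals, had 12581 units with TNF and 3448 at day 10, 3.65-fold higher. The NF-kB genes Relb and Nfkb2 were 2.87-fold and 2.78-fold higher, and a second Relb probe set had a log2 ratio of 1.08. Myc, which also acts on Ccnd2, had 1723 units in progenitors, 950 at day 7, 710 at day 10 and 368 with TNF, lower with TNF where Ccnd2 was higher. At day 7 over progenitor 3 of 12 genes in the list were higher and 1 lower (median 0.64), against 13.4% and 11.9% of all genes.

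**Figure D4:**
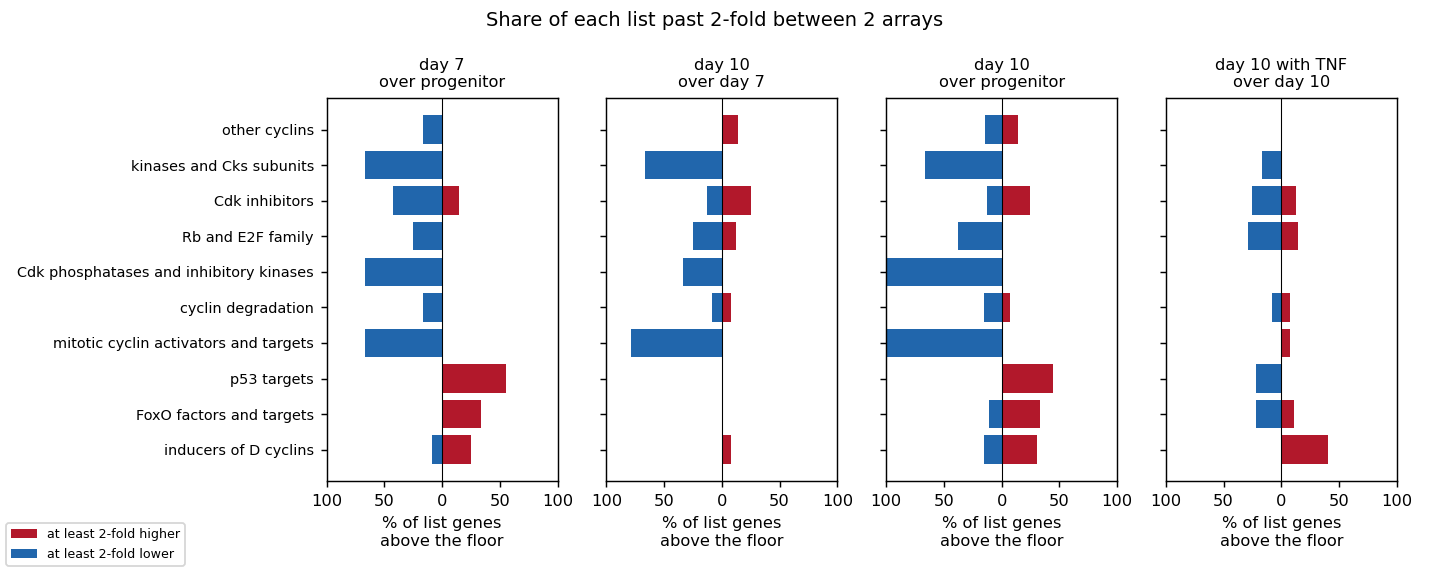
Bars give, for each of 10 gene lists and each of the 4 comparisons, the percent of the list's genes above 105 units that were at least 2-fold higher (right, red) or at least 2-fold lower (left, blue). Kinases and mitotic genes lie on the lower side for day 7 over progenitor and day 10 over day 7, and the D cyclin inducers have 6 of 15 genes on the higher side with TNF.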

How the data were processed

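RNA of 4 groups was measured on 1 array each. The deposited intensities are linear probe-set values in which values below 0 occur, so a subtraction had been made, of a kind not known here. Their mean over the central 96% of probe sets is 1000.00 on every array, so the authors had matched the arrays. The sources used here give no software, background method or build, and the number of arrays limits the precision. Of 12654 probe sets, 10298 had 1 gene symbol, 363 several and 1993 none in the platform annotation; current symbols were taken through the Entrez number for 10257 non-control probe sets. A gene's value is its probe set with the highest mean. Arrays were scaled to a common 75th percentile (factors 0.962 to 1.05), floored, then taken to log2 (Python 3.11.15, pandas 2.3.3, numpy 2.4.6). The ratio step was tested on simulated data. No test was run. The members, gene lists and the rule for named genes (up to 4 per list by size of ratio, 5 per likeness) were chosen with earlier results of these data known. Further genes, among them Anapc2, Anapc4, Anapc11, Elane, S100a8, Kit, Ccne2, Cdk4 at day 10, Ccnl2 and Myc with TNF, were named after their values were seen. Values under a floor count as the floor. Alternatives were 3 other scalings, 2 other floors, 2 other choices of probe set, 2 other folds and, added after the data were seen, the TNF comparison without Ccne1.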

Additional observations from a re-analysis of the deposited data

How the results depend on the processing

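No paired analysis was possible because each group has 1 array, and for the same reason no array could be left out. Quantile normalization, the values as deposited, median-ratio scaling, the median over probe sets and leaving out shared probe sets moved none of the counts, class differences or single ratios by more than the probe-set SD or 1.5 times. What moved did so with the floor, the fold or the reading of Ccne1. At the floor of 428 units the members counted as higher were 0 at day 10 over day 7 and 0 at day 10 over progenitor (1 each at 105 units), those lower with TNF were 0 (2 at 105 units), the D minus A, B and E difference was 1.46 at day 10 over day 7 (0.45) and 1.20 with TNF (4.24), and Ccnd2 with TNF was 2.38 (4.41). At a lower floor of 35.2 units, the 30th percentile, the last 2 were 5.19 and 5.98, and the difference at day 10 over day 7 changed sign to -0.34. The difference at day 10 over progenitor was 2.17 at 428 units and 0.37 at 35.2 (1.15 at 105). Among all genes at 428 units, 314 of 4326 were higher at day 10 over day 7 and 771 of 4460 at day 10 over progenitor. With TNF 222 of 4308 were lower. Without Ccne1, tried after the data were seen, 1 member was lower with TNF and the difference with TNF was 3.10. With a 3-fold rule 1 member was lower at day 7 (5 at 2-fold), where 264 of 5957 genes were lower. With a 1.5-fold rule 2 members were higher at each of day 10 over day 7, day 10 over progenitor and TNF over day 10 (1 at 2-fold). Among all genes 1403 of 6123, 1954 of 6198 and 1074 of 6151 were higher by that rule. The counts of 2 of 8 members lie near these shares. The ratio of Ccnd2 with TNF, counted apart, moved by more than the probe-set SD at both other floors. Of 217 alternative values of the remaining single-member ratios, 209 moved by less than that SD and 0 changed sign past 2-fold. The 8 that moved by more did so with a change of floor (Ccnd2, Ccne1, Ccna2 and Ccng1). The median of all genes was 0.06 at day 10 over day 7 and -0.06 in the values as deposited, and 0.07 and -0.05 at day 10 over progenitor. Readings under 428 units, at day 10 for Ccnd2 and Ccnf, in progenitors and at day 7 for Ccng1, and with TNF for Ccne1, Ccna2 and Ccnf, limit the size of every ratio built on them.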
